A study of Papio anubis with 588 samples.

Results

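The genes described here are 37 cell cycle and proliferation genes, listed by symbol, and 36 of them have a row among the 34178 genes counted. CCNB2, cyclin B2, has no row under that symbol, so no value of it is given. RNA was sequenced from biopsies of liver, muscle and adipose tissue of 99 baboons of the species Papio anubis. Each animal was sampled after 2 years on a diet high in cholesterol and fat (HCHF) and earlier, at 0 years, on a diet low in both (LCLF). After the authors' quality control liver had 87 HCHF and 95 LCLF libraries, muscle 98 HCHF and 96 LCLF, and adipose tissue 95 HCHF and 99 LCLF. Both diets were present for 84 animals (liver), 95 (muscle) and 95 (adipose tissue). All animals changed diet, and animals kept on LCLF were not analysed here, so the diet cannot be told apart from 2 years of age and of calendar time.

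A dividing cell passes through fixed stages, each with its own proteins. In the first gap phase (G1), cyclins D and E with their kinases commit the cell, and the MCM proteins are loaded at origins as the helicase that opens the DNA. During DNA synthesis, enzymes such as thymidylate synthase supply nucleotides. In mitosis, cyclin B and the polo and aurora kinases drive chromosome separation, which checkpoint proteins delay until every chromosome is attached to the spindle. Adult hepatocytes and muscle fibres are mostly out of cycle, and transcripts of these genes in a biopsy may come from any cell type in it.

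Library totals ranged from 6.51 to 38.46 M (mega) counts, with a median of 19.5 M. The labels describe 2 library batches, and expression separated 16 animals from 83, with median totals of 10.9 M and 20.1 M. Levels are given as counts-per-million values (CPM) without correction for gene length, so they are compared between groups and tissues for each gene and not between genes. Each tissue showed its own defining markers. Hepatocyte markers made up a median of 17.7% of counts in HCHF and 18.4% in LCLF livers. A small number of libraries carried an unusual share of another tissue's markers or little of their own (6 of liver, 6 of muscle and 8 of adipose tissue). Member calls were counted again without the animals that had them. The call lost in liver is named below, and for adipose tissue only the counts are given. In whole tissue, fewer cells of a type and less RNA per cell cannot be told apart.

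Among the liver members tested, TOP2A, MKI67, MCM5, TYMS, PRC1, MCM6 and MCM2 had the largest rises on HCHF, and BIRC5, PLK1 and CCND1 fell. Of 26 members tested, 12 rose and 3 fell at an adjusted p under 0.05 (edgeR's quasi-likelihood test, paired by animal), where 22.3% of all 14919 genes tested rose and 27.1% fell. The median log2 fold change was 0.19 over the tested members and -0.03 over all genes tested. Of the 12 that rose, 7 (MKI67, TOP2A, CCNB1, CCNE1, AURKB, PRC1 and HMMR) did not reach the minimum of about 10 counts in enough LCLF libraries alone, so their place among the tested genes leans on HCHF libraries. Of these 7, 5 (TOP2A, CCNE1, AURKB, PRC1 and HMMR) did not reach it in enough HCHF libraries alone either, and were tested on both diets pooled. Among the 19 members that met it on each diet, 5 rose (MCM2, MCM5, MCM6, TYMS and RRM2) and 3 fell. In these 19 the share that rose was near that of all genes tested. The larger share over all 26 therefore rests on the 7 that did not meet it on LCLF.

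**Figure D1:**
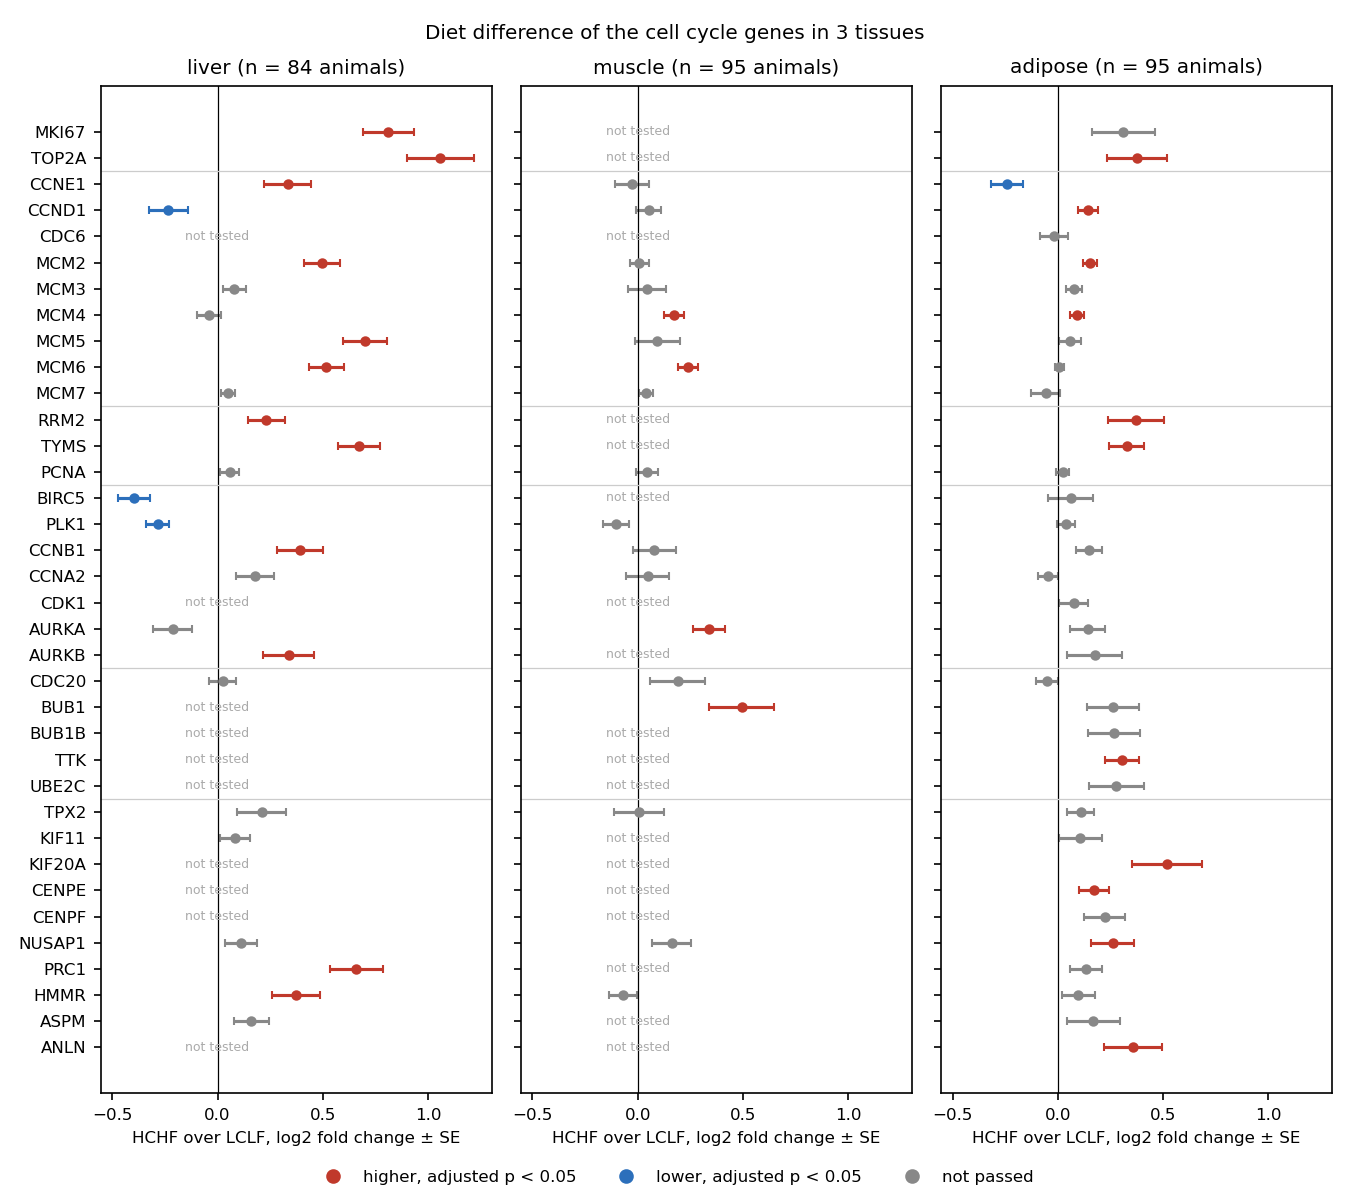
Log2 fold change (HCHF over LCLF) with its SE for the 36 members, in rows by role, in liver (84 animals), muscle (95) and adipose tissue (95), with red for higher, blue for lower and grey for members that did not pass. In liver the points run from -0.40 for BIRC5 to 1.06 for TOP2A, and in muscle no point is blue.

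Among the members that passed the filter on low counts, genes of chromosome structure had the largest changes in liver. MKI67, which encodes the Ki-67 protein that coats mitotic chromosomes and marks cycling cells, had 0.245, 1.28 and 11.6 CPM (lowest, median, highest) in HCHF livers, against 0, 0.649 and 7.38 CPM in LCLF livers. The ranges overlapped widely, yet MKI67 was higher on HCHF in 67 of 84 animals, with a log2 fold change of 0.81 ± 0.12 (SE, adjusted p = 2.19e-08, edgeR). TOP2A, the topoisomerase that untangles replicated DNA, had 0.0612, 0.724 and 6.61 CPM in HCHF livers, against 0, 0.272 and 4.12 CPM in LCLF livers. It rose by 1.06 ± 0.16 on the log2 scale and was higher in 65 of 84 animals (adjusted p = 3.22e-08, edgeR). At these levels a library holds few reads, a median of 14 for TOP2A in HCHF livers, and how much of the spread between animals is counting error was not tested.

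Among the genes of G1 and origin licensing, 3 of the 6 helicase subunits rose in liver. MCM5 had 0.596, 1.86 and 7.46 CPM in HCHF livers, against 0.298, 1.06 and 4.85 CPM in LCLF livers, and rose in 69 of 84 animals (log2 fold change 0.70 ± 0.10, adjusted p = 1.62e-08, edgeR). MCM6 rose by 0.52 ± 0.08 and MCM2 by 0.49 ± 0.09 (log2, SE), with medians of 2.29 and 2.05 CPM in HCHF livers, against 1.51 and 1.25 CPM in LCLF livers. The other subunits did not pass, at log2 fold changes of 0.08 ± 0.06 for MCM3, -0.04 ± 0.06 for MCM4 and 0.05 ± 0.03 for MCM7. The 6 subunits work as a ring-shaped complex. CCNE1, cyclin E1, rose by 0.33 ± 0.11 (adjusted p = 0.00966, edgeR), with a median of 0.590 CPM in HCHF and 0.442 CPM in LCLF livers. CDC6, which loads the helicase, was too low to be tested.

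CCND1, cyclin D1, which activates the G1 kinases CDK4 and CDK6, went the other way from cyclin E1 in liver. It had 16.7, 48.2 and 197 CPM in HCHF livers, against 16.6, 50.7 and 175 CPM in LCLF livers. The medians were close and the ranges nearly the same. The within-animal log2 fold change was -0.23 ± 0.09, lower in 54 of 84 animals (adjusted p = 0.0322, edgeR). The call was lost without the 5 animals that had a library in doubt (log2 fold change -0.20, adjusted p = 0.0685, edgeR). It was also lost with the libraries the authors had left out, over 96 animals (-0.10, adjusted p = 0.477, edgeR). Those liver libraries held at most 0.809% of hepatocyte markers, against at least 3.92% in the HCHF and 12.8% in the LCLF livers kept. One of them, of animal 14642 on HCHF, held 14.3% of myocyte markers, so that fit does not test the call in liver alone.

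Of the genes of DNA synthesis, TYMS, thymidylate synthase, had 0.428, 4.31 and 23.5 CPM in HCHF livers, against 0.602, 2.11 and 26.9 CPM in LCLF livers. It rose in 66 of 84 animals, by 0.67 ± 0.10 on the log2 scale (adjusted p = 1.36e-08, edgeR). RRM2, the small subunit of ribonucleotide reductase, rose by 0.23 ± 0.09 (log2), with medians of 4.49 CPM in HCHF and 3.55 CPM in LCLF livers. Its adjusted p of 0.0214 (edgeR) was near the threshold. PCNA, the sliding clamp of the DNA polymerases, had 4.13, 10.9 and 21.1 CPM in HCHF livers, against 5.83, 9.93 and 18.004 CPM in LCLF livers, and did not pass, with a log2 fold change of 0.06 ± 0.05.

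Mitotic cyclins and kinases split in liver, with 2 that rose and 2 that fell of 6 tested. CCNB1, cyclin B1, rose by 0.39 ± 0.11 (log2, adjusted p = 0.00204, edgeR), with medians of 0.757 CPM in HCHF and 0.549 CPM in LCLF livers. AURKB, aurora kinase B, rose by 0.34 ± 0.12, with medians of 0.604 CPM in HCHF and 0.461 CPM in LCLF livers. BIRC5, survivin, which works with AURKB in the chromosomal passenger complex, had 1.14, 8.28 and 71.4 CPM in HCHF livers, against 0.887, 10.4 and 48.3 CPM in LCLF livers. It fell by 0.40 ± 0.07 on the log2 scale, lower in 63 of 84 animals (adjusted p = 4.35e-06, edgeR), so these partners in a complex moved in opposite directions. PLK1, the polo-like kinase that starts mitotic entry, had 3.19, 6.86 and 32.2 CPM in HCHF livers, against 3.27, 7.77 and 23.4 CPM in LCLF livers. It fell by 0.28 ± 0.05, lower in 61 of 84 animals (adjusted p = 7.69e-06, edgeR). PLK1 overlaps the genes ERN2 and DCTN5 in the RefSeq annotation of Panubis1.0, and the strand setting of the counting is unknown here, so reads of these neighbours cannot be told apart from its own. CCNA2 (0.18 ± 0.09) and AURKA (-0.21 ± 0.09) did not pass.

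**Figure D2:**
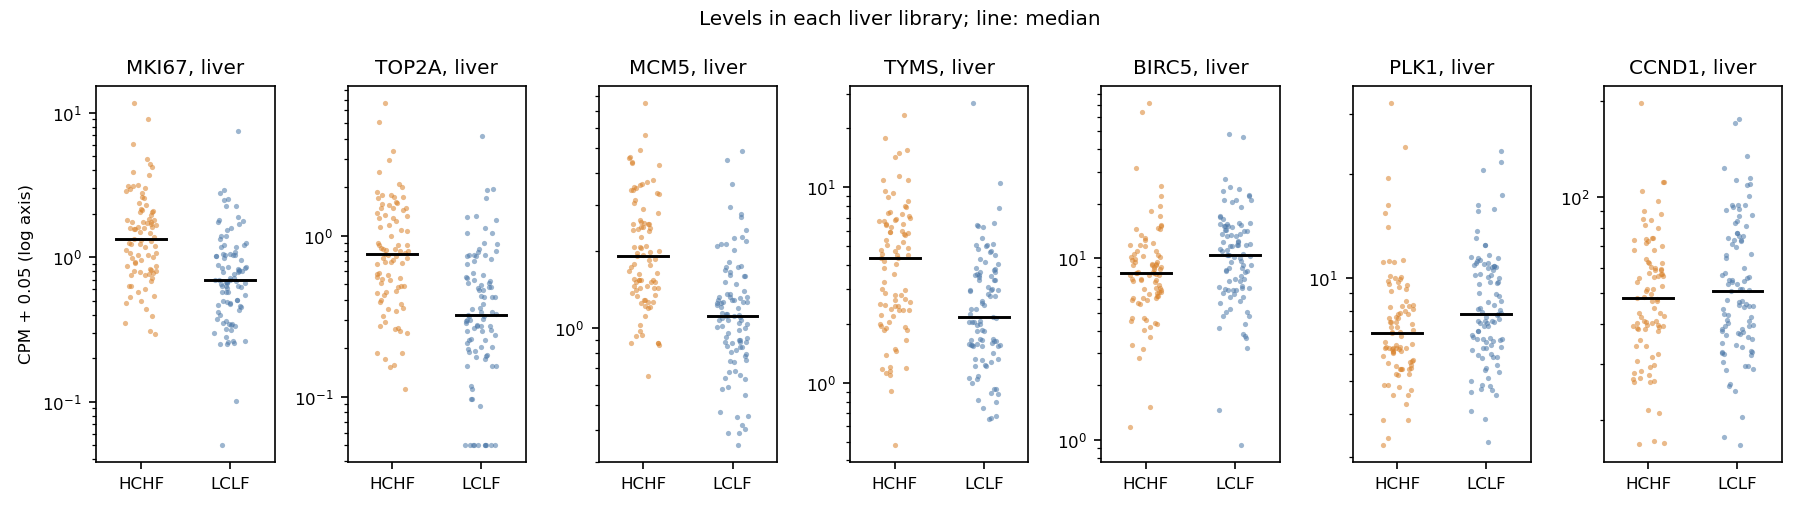
CPM plus 0.05 on a log axis in each of 87 HCHF and 95 LCLF liver libraries for 7 members, with a line at the median. The HCHF median is higher for MKI67, TOP2A, MCM5 and TYMS and lower for BIRC5, PLK1 and CCND1, and the groups overlap in every panel.

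Spindle and cytokinesis genes gave 2 rises among 6 tested in liver. PRC1, which bundles microtubules in the spindle midzone, had 0.0451, 0.648 and 5.52 CPM in HCHF livers, against 0, 0.336 and 3.49 CPM in LCLF livers, and rose by 0.66 ± 0.13 (log2, adjusted p = 8.49e-06, edgeR). HMMR, a spindle-associated hyaluronan receptor, rose by 0.37 ± 0.11, with medians of 0.609 CPM in HCHF and 0.405 CPM in LCLF livers. PRC1 overlaps RCCD1, HMMR overlaps NUDCD2 and TYMS overlaps ENOSF1, with the same limit as for PLK1. CCNB1, CCND1, RRM2 and MCM6 each overlap another annotated gene too, as do CENPF, TTK and ANLN, which are called in other fits or tissues. So do PCNA, CCNA2 and KIF11, which did not pass in liver. The limit holds for them as well, in every tissue. TPX2, KIF11, NUSAP1 and ASPM did not pass, at log2 fold changes between 0.08 and 0.21. Of the checkpoint and mitotic exit genes only CDC20, the activator of the anaphase-promoting complex, was tested, and it did not pass (0.02 ± 0.06).

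The 10 liver members left untested were fitted with limma-voom on all genes with at least 1 count. In that fit 9 of the 10 were called higher, where 14.1% of all 29187 genes fitted were higher and 33.4% lower, and CDC6 was not called (0.22 ± 0.13). All 10 were under the count minimum of the main test. CENPF, a kinetochore protein, had the largest of these log2 fold changes, 1.00 ± 0.16, and BUB1 (0.94 ± 0.19), BUB1B (0.91 ± 0.17) and TTK (0.65 ± 0.17), kinases of the spindle checkpoint, were also higher. CDK1, the partner of cyclin B, was higher by 0.88 ± 0.18, with a median of 0.405 CPM in HCHF and 0.207 CPM in LCLF livers. Of the 26 members tested before, 12 were higher and 4 lower in this fit, with AURKA added (-0.22 ± 0.09, adjusted p = 0.0441, limma-voom). At under 1 CPM these values rest on a handful of reads per library.

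Other genes of the pathway in liver are read against the 22.3% of all genes that rose and the 27.1% that fell. Of 25 other replication genes tested, 5 rose, near the share of all genes, and 2 fell. The largest changes were in CHAF1B, a histone chaperone subunit (log2 fold change 0.39 ± 0.09), and CDT1, a licensing factor (0.36 ± 0.14). Of 27 other mitosis genes, 10 rose and 1 fell, led by ECT2 (0.57 ± 0.11), which triggers furrowing, and the kinesin KIFC1 (0.54 ± 0.10). Of 18 cell cycle transcription factors and G1 kinases, 4 rose, also near that share, and 3 fell. The rises were in CCND2 (0.81 ± 0.11) and CCND3 (0.47 ± 0.05), the other D cyclins, and in MYBL2 (0.74 ± 0.15) and FOXM1 (0.46 ± 0.13), activators of mitotic genes. CCND2 and CCND3 thus moved opposite to CCND1. Of 6 CDK inhibitors tested, 4 rose and 2 did not pass. CDKN2D (0.49 ± 0.09) and CDKN1C (0.49 ± 0.10) led, and CDKN1A, the p53 target p21, did not pass (0.28 ± 0.13).

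Markers of other cell types moved in the same livers. Of 11 macrophage markers tested, 10 rose, led by MSR1 (1.61 ± 0.12) and CD68 (1.49 ± 0.11), and all 11 T and NK cell markers tested rose. So did all 9 endothelial, all 7 fibroblast and stellate cell, all 4 neutrophil and marrow precursor and both erythroid markers tested, so the shift was not confined to immune cells. It did not take in every cell type: of 9 B and plasma cell markers 5 rose and 1 fell, and the 4 bile duct markers did not pass. Macrophage markers summed to 0.0512% to 0.196% of counts in HCHF and 0.0255% to 0.144% in LCLF livers, and T and NK cell markers to 0.00352% to 0.0198% in HCHF and 0.000938% to 0.0132% in LCLF livers. The macrophage sum is mostly CD14, which did not pass (log2 fold change -0.07, medians of 644.6 CPM in HCHF and 642.4 CPM in LCLF livers), and the other 10 markers summed to a median of 0.0396% in HCHF and 0.0152% in LCLF livers. Of 9 hepatocyte markers 6 fell, and their sum was 3.92% to 21.1% in HCHF and 12.8% to 24.6% in LCLF livers. None of the macrophage or T and NK cell markers with a row was at 0 in every library of a diet. Their part in the members' changes was not tested.

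The next question was whether the members that rose and those that fell in liver form separate groups across animals. For each animal the change was its HCHF minus its LCLF level in log2 CPM, centred within batch, and Pearson's r was taken over 84 animals for each pair of genes. Both genes of a pair are read from the same libraries and share their depth and scaling. The split by direction comes from the same values, so medians over pairs are descriptions. The 12 members that rose covaried: their 66 pairs had a median r of 0.31, above 0 in 65 pairs, against 0.13 for pairs of all genes that rose and -0.0023 for pairs of all genes tested. The strongest pair was MKI67 with TOP2A, and the lowest was CCNE1 with MCM2 (r = -0.07).

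The 3 members that fell did not form a group. Over their 3 pairs the median r was -0.20, against 0.04 for pairs of all genes that fell. BIRC5 and PLK1 changed together (r = 0.37, Spearman's rho = 0.28, adjusted p = 0.00219 over 105 pairs, permutation test). The r was 0.31 without the 2 animals farthest from the median, 0.43 in batch 2 and -0.11 in the 13 animals of batch 1. CCND1 changed against PLK1 (r = -0.25, rho = -0.22, adjusted p = 0.0404, permutation test), with -0.22 without those 2 animals, -0.28 in batch 2 and -0.12 in batch 1. By Spearman's rho this pair did not pass (adjusted p = 0.0746, permutation test). With BIRC5 the r of CCND1 was -0.20 and did not pass (adjusted p = 0.102, permutation test). CCND1 instead sided with some members that rose, at r = 0.32 with MCM2 (rho = 0.32, adjusted p = 0.00846, permutation test) and 0.31 with MCM5 (rho = 0.32, adjusted p = 0.0118, permutation test). Without the 2 farthest animals these were 0.35 and 0.33, in batch 2 they were 0.33 and 0.36, and in batch 1 0.32 and 0.0187.

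**Figure D3:**
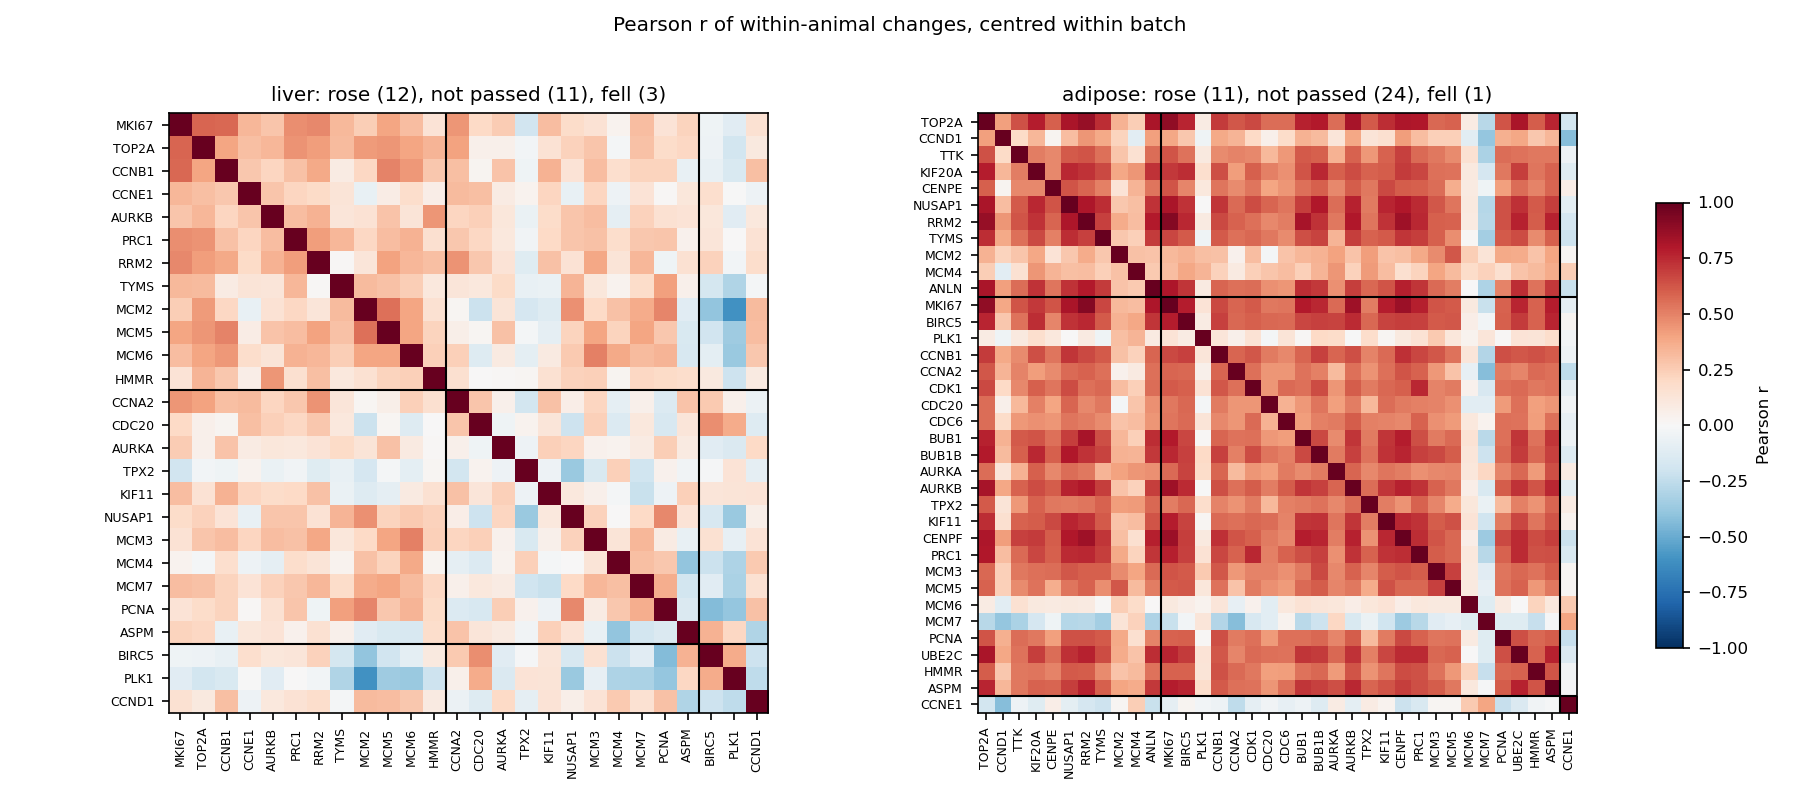
Pearson r of within-animal changes (HCHF minus LCLF, log2 CPM centred within batch) for pairs of members in liver (26 members, 84 animals) and adipose tissue (36 members, 95 animals), with lines between members that rose, did not pass and fell. The liver block of 12 members that rose is mostly red, the PLK1 row is blue toward the MCM genes, and the adipose matrix is red outside the rows of PLK1, MCM6, MCM7 and CCNE1, apart from single pale cells.

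Between the 2 directions the median r in liver was -0.02 over 36 pairs, against -0.07 for all genes that rose paired with all genes that fell. Of these pairs 4 were positive and 5 negative past an adjusted p of 0.05, among 105 pairs of called members tested by permutation. All 5 negative pairs joined PLK1 or BIRC5 to replication genes. PLK1 with MCM2 gave the largest size of r of any pair, -0.60 (rho = -0.55, adjusted p = 0.00021, the smallest the permutations allow here). It was -0.52 without the 2 animals farthest from the median, -0.64 in batch 2 and -0.18 in batch 1. PLK1 also opposed MCM6 (r = -0.37), MCM5 (r = -0.35) and TYMS (r = -0.30). All 4 positive pairs joined CCND1 to MCM2, MCM5, MCM6 or CCNB1, and the pair with MCM6 did not pass by Spearman's rho (adjusted p = 0.0517, permutation test).

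Clustering the 26 tested liver members into 2 groups by average linkage put BIRC5 and PLK1 with CDC20, TPX2, KIF11 and ASPM, none of which passed the diet test. CCND1 fell in the other group, with all 12 members that rose. The first principal axis of the members' changes held 22.8% of their variance, with r to the axis of 0.70 for MCM5 and 0.68 for TOP2A, 0.37 for CCND1 and -0.47 for PLK1.

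**Figure D4:**
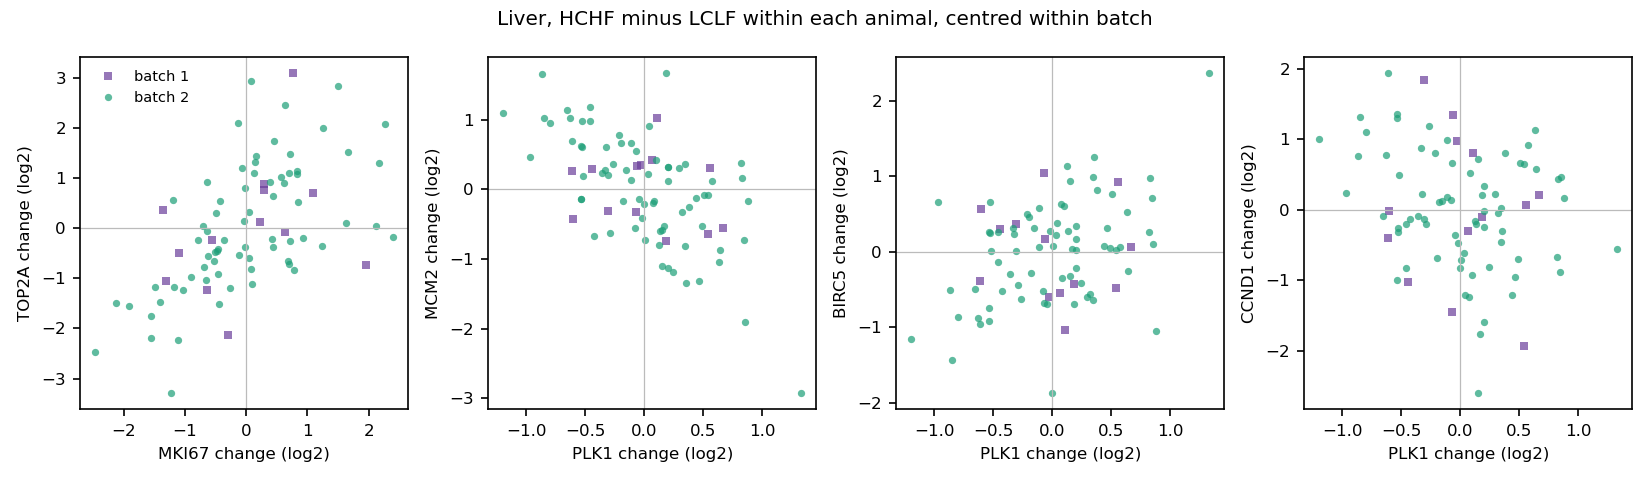
Within-animal changes (HCHF minus LCLF, log2 CPM centred within batch) in the livers of 84 animals, squares for batch 1 and circles for batch 2. TOP2A runs up with MKI67 (r = 0.58), MCM2 runs down with PLK1 (r = -0.60), BIRC5 runs up with PLK1 (r = 0.37) and CCND1 runs weakly down with it (r = -0.25).

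The change of MKI67, the usual marker of cycling cells, correlated with that of 14 of the 25 other tested liver members past an adjusted p of 0.05 (60 correlations over liver and adipose tissue, permutation test), all positive, although AURKA and AURKB did not pass by Spearman's rho. TOP2A (r = 0.58, rho = 0.61) and CCNB1 (r = 0.57, rho = 0.57) were highest, each with an adjusted p of 1.9e-05 by permutation. These r were 0.58 and 0.55 without the 2 animals farthest from the median, 0.62 and 0.63 in batch 2, and 0.34 and 0.27 in batch 1. With none of the 3 members that fell did it pass, at r from -0.11 to 0.16. The share of all genes that correlated with MKI67 is not given here.

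Changes of the members were also set beside changes of mean marker levels across the same livers. Over all 26 tested members, 10 correlated positively and 1 negatively with the T and NK cell score (permutation test). With the macrophage score 8 did so positively and 1 negatively. The share of all genes that did so is not given here, and the members that rose were chosen from the same values. With the T and NK cell score, 8 of the 12 members that rose passed a positive correlation by permutation test. With the macrophage score, 7 of the 12 members that rose passed a positive correlation, among them TOP2A (r = 0.48, rho = 0.48) and MKI67 (r = 0.47, rho = 0.46; adjusted p = 0.0001 for each, permutation test over 240 correlations). Without the 2 animals farthest from the median these were 0.46 and 0.46. For TOP2A the r was 0.49 in batch 2 and 0.40 in batch 1. For MKI67 it was 0.54 in batch 2 and -0.30 in batch 1, so it did not hold in the 13 animals of batch 1. PLK1 ran against the macrophage score (r = -0.29, rho = -0.34, adjusted p = 0.0173, permutation test), with -0.25 without the 2 farthest animals, -0.28 in batch 2 and -0.42 in batch 1. BIRC5 ran against the hepatocyte score (r = -0.38, rho = -0.28, adjusted p = 0.00125, permutation test), with -0.33 without the 2 farthest animals, -0.46 in batch 2 and 0.11 in batch 1.

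In muscle few members moved and most were scarce. Of 18 members tested, 4 rose and 0 fell, where 6.65% of all 13621 genes tested rose and 7.91% fell. At an unadjusted p under 0.05 no member was lower in muscle by edgeR, and by limma-voom and DESeq2 none was called lower. Among the 18 tested, the largest rise was in BUB1, a checkpoint kinase, with 0.0551, 0.707 and 2.79 CPM in HCHF muscles, against 0, 0.455 and 1.76 CPM in LCLF muscles. BUB1 reached the count minimum in 59 HCHF and 44 LCLF libraries, where 70 were needed, so it met it on neither diet alone. Its log2 fold change was 0.49 ± 0.16, higher in 59 of 95 animals (adjusted p = 0.0223, edgeR). AURKA, the centrosomal aurora kinase, had 0.452, 2.27 and 5.33 CPM in HCHF muscles, against 0.436, 1.73 and 4.67 CPM in LCLF muscles, and rose by 0.34 ± 0.08 (adjusted p = 0.00136, edgeR). AURKA overlaps CSTF1.

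Helicase subunits MCM6 and MCM4 were among the muscle calls, and only MCM6 was also called in liver. MCM6 had 1.46, 6.33 and 14.7 CPM in HCHF muscles, against 2.27, 4.83 and 10.9 CPM in LCLF muscles, and rose in 71 of 95 animals, by 0.24 ± 0.05 (log2, adjusted p = 0.000239, edgeR). MCM4 had 4.17, 10.5 and 17.9 CPM in HCHF muscles, against 2.43, 8.94 and 16.4 CPM in LCLF muscles, and rose by 0.17 ± 0.05 (adjusted p = 0.00971, edgeR). CCND1 (0.05 ± 0.06) and PCNA (0.04 ± 0.05) did not pass in muscle. Their medians were 5.11 and 11.8 CPM in HCHF muscles, against 5.01 and 10.7 CPM in LCLF muscles.

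MKI67 and TOP2A were too low to be tested in muscle, with medians of 0.141 and 0.0466 CPM in HCHF, against 0.0760 and 0.0443 CPM in LCLF muscles. A single HCHF muscle library, of animal 16499, stood apart. It had 14.0 CPM of MKI67, where the next highest of 194 muscle libraries had 1.21, and it ranked first for 21 of the 36 members. Its RRM2 level was 44.1 CPM, where the next highest was 2.77. The same library held 651 CPM of MYOG, myogenin, which drives muscle cells to differentiate, and the LCLF library of this animal held 189 CPM, against a median of 67.7 CPM in muscle. Of the stem cell marker PAX7 it held 0 CPM, but the median in muscle was only 0.377 CPM. Of the other markers on the satellite (muscle stem) cell list it held 55.5 CPM of MYOD1, 2.22 CPM of MYF5 and 0.306 CPM of CALCR. Their medians in muscle were 17.6, 1.53 and 0.351 CPM. Without this animal the muscle calls were again 4 rises and 0 falls among the members.

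Other pathway genes in muscle are read against the 6.65% of all genes that rose and the 7.91% that fell. Of 23 other replication genes 3 rose and 1 fell, of 24 other mitosis genes 1 rose and 1 fell, and of 17 transcription factors and G1 kinases 3 rose, led by E2F8 (0.43 ± 0.11). Of 7 CDK inhibitors 1 rose, CDKN1A (0.45 ± 0.16). Of the macrophage markers 6 of 9 rose, and of the T and NK cell markers 5 of 7, while 7 of 9 endothelial and 3 of 6 myocyte markers fell. Their part in the members' changes was not tested. Changes of the 18 tested members had a median pairwise r of -0.0024 over 95 animals, and the 6 pairs among the 4 that rose a median of 0.28.

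In adipose tissue all 36 members were tested, and 11 rose and 1 fell (KIF20A met the minimum on neither diet alone), where 18.7% of all 16827 genes tested rose and 19.9% fell. The median log2 fold change was 0.14 over the members and -0.0048 over all genes tested. KIF20A, a kinesin of cytokinesis, had 0, 0.977 and 26.0 CPM in HCHF adipose tissue, against 0, 0.681 and 4.60 CPM in LCLF adipose tissue. It rose by 0.52 ± 0.17 on the log2 scale but was higher in only 56 of 95 animals (adjusted p = 0.00936, edgeR). TOP2A had 0.508, 3.04 and 53.3 CPM in HCHF, against 0.5002, 2.47 and 15.3 CPM in LCLF adipose tissue, and rose by 0.37 ± 0.14 (adjusted p = 0.0290, edgeR). MKI67 had 0.877, 3.68 and 40.6 CPM in HCHF, against 0.214, 3.37 and 26.1 CPM in LCLF adipose tissue, and did not pass (0.31 ± 0.15, adjusted p = 0.0915, edgeR).

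Nucleotide synthesis genes rose in adipose tissue as in liver. TYMS had 2.43, 7.82 and 44.8 CPM in HCHF, against 1.94, 6.69 and 24.8 CPM in LCLF adipose tissue, and rose in 66 of 95 animals, by 0.33 ± 0.08 (log2, adjusted p = 0.00106, edgeR). RRM2 rose by 0.37 ± 0.13, with medians of 9.77 CPM in HCHF and 8.34 CPM in LCLF adipose tissue (adjusted p = 0.0219, edgeR). PCNA did not pass (0.02 ± 0.03), with medians of 32.8 CPM in HCHF and 32.6 CPM in LCLF adipose tissue. MCM2 rose by 0.15 ± 0.03 in 65 of 95 animals (adjusted p = 0.000204, edgeR) and MCM4 by 0.09 ± 0.04.

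CCND1 and CCNE1 moved in adipose tissue in the directions opposite to liver, where the call for CCND1 was lost in the other fits given above. CCND1 had 29.5, 79.8 and 168 CPM in HCHF, against 22.0, 74.5 and 147 CPM in LCLF adipose tissue, and rose by 0.14 ± 0.05 (log2, adjusted p = 0.0145, edgeR). CCNE1 had 1.05, 7.22 and 22.9 CPM in HCHF, against 3.15, 8.70 and 23.3 CPM in LCLF adipose tissue. It fell by 0.24 ± 0.08, lower in 61 of 95 animals (adjusted p = 0.0081, edgeR), and was the only member called lower. Mitotic genes that rose were TTK (0.30 ± 0.08), ANLN, the cytokinetic scaffold anillin (0.36 ± 0.14), NUSAP1, a spindle protein (0.26 ± 0.10), and CENPE, a kinetochore motor (0.17 ± 0.07). The other 24 members did not pass, at log2 fold changes from -0.06 for MCM7 to 0.31 for MKI67.

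A single HCHF adipose library, of animal 16741, ranked first of 194 for 32 of the 36 members. It held 40.6 CPM of MKI67, 53.3 CPM of TOP2A and 103 CPM of RRM2, against 1.25, 1.52 and 3.46 CPM in the LCLF library of the same animal. The highest other libraries held 26.1, 15.3 and 38.6 CPM. Macrophage markers made up 0.148% of its counts and adipocyte markers 0.404%, against 0.0249% and 0.960% in the LCLF library. Fibroblast markers made up 1.92% of the HCHF library, the highest HCHF value, against 0.599% of the LCLF library. The LCLF library also held 1.34% of myocyte markers, the highest of all adipose LCLF libraries (median 0.0357%), against 0.134% in the HCHF library. The part of these cells in the difference was not tested. Without this animal 8 members rose, and ANLN, NUSAP1 and CENPE no longer passed (adjusted p = 0.0518, 0.0538 and 0.0748, edgeR). Without the 7 animals that had a library in doubt, 15 members rose and 1 fell.

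**Figure D5:**
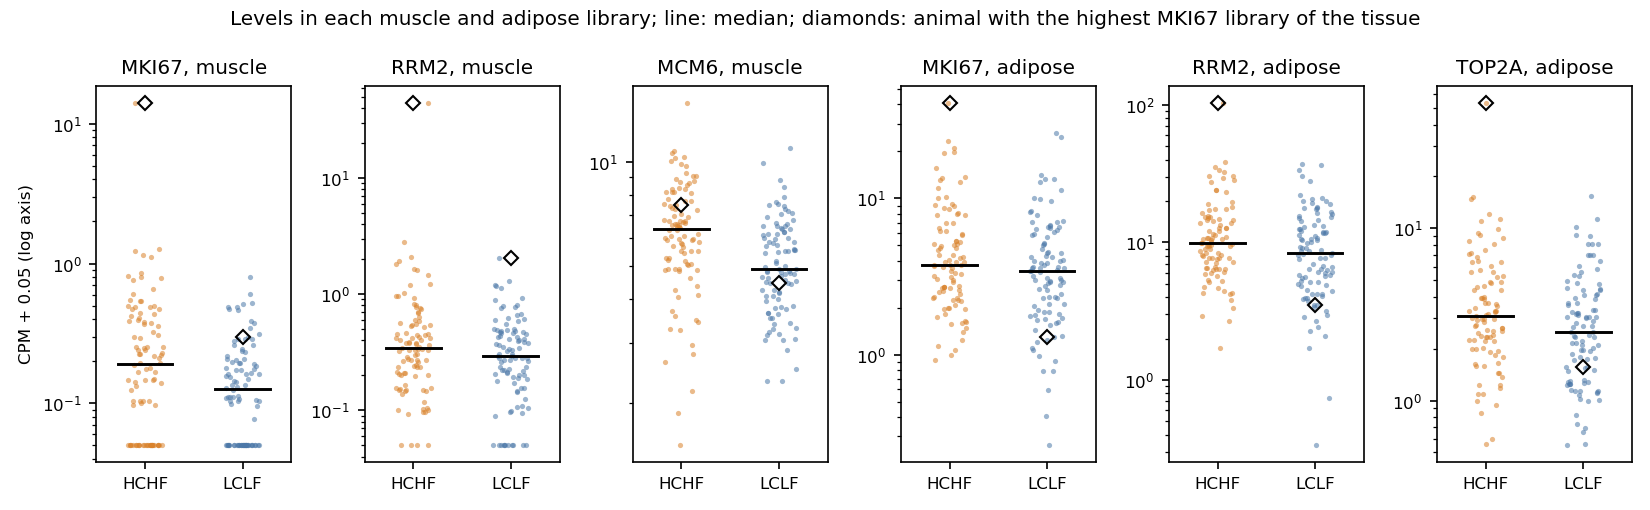
CPM plus 0.05 on a log axis in each muscle library (98 HCHF, 96 LCLF) and adipose library (95 HCHF, 99 LCLF) for 3 members each, with a line at the median and diamonds on the animal with the highest MKI67 library of the tissue. In muscle that animal stands alone at 14.0 CPM of MKI67 and 44.1 CPM of RRM2 on HCHF, and in adipose tissue at 53.3 CPM of TOP2A.

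In adipose tissue nearly all members changed together. The 630 pairs of members had a median r of 0.52 over 95 animals, 0.44 without the animal with the highest MKI67 change, and 0.43 in batch 2 alone, against -0.0038 for pairs of all genes tested. MKI67 with RRM2 was the highest pair (r = 0.92, rho = 0.93), at 0.90 without the 2 animals farthest from the median, 0.92 in batch 2 and 0.92 in batch 1. Of the 35 other members, 31 correlated positively with MKI67 past an adjusted p of 0.05 by permutation. The exceptions were CCNE1 (r = -0.09), MCM6 (0.09) and PLK1 (0.14), which did not pass, and MCM7, which was negative (r = -0.23, adjusted p = 0.0482, permutation test) and did not pass by Spearman's rho (adjusted p = 0.0545). CCNE1, the member that fell, was also apart from the 11 that rose, with a median r of -0.12 to them. For adipose tissue too, the share of all genes that correlated with MKI67 is not given here.

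Changes of most adipose members also correlated with those of marker scores of other cell types. On HCHF 10 of 11 macrophage, 6 of 7 fibroblast, 4 of 4 neutrophil and marrow precursor, 3 of 3 erythroid and 2 of 11 T and NK cell markers rose in adipose tissue, and 5 of 9 endothelial markers fell. With the T and NK cell score 29 of 36 members correlated positively, and with the adipocyte score 26 negatively (permutation test). The change of the macrophage score correlated positively with 30 of 36 members past an adjusted p of 0.05 (permutation test), with CENPF highest (r = 0.71, rho = 0.70, adjusted p = 5.714e-05). It was 0.74 without the 2 farthest animals, 0.74 in batch 2 and 0.66 in batch 1. CCNE1 instead moved with the adipocyte score (r = 0.57, rho = 0.61, adjusted p = 5.714e-05, permutation test), at 0.57 without the 2 farthest animals, 0.56 in batch 2 and 0.62 in batch 1. Macrophage markers summed to 0.0278% to 0.322% of counts in HCHF and 0.00977% to 0.332% in LCLF adipose tissue, and adipocyte markers to 0.0435% to 1.43% in HCHF and 0.139% to 1.54% in LCLF adipose tissue. The share of all genes that correlated with these scores is not given here, so these counts cannot be called particular to the members. The part of these cell types in the members' changes was not tested.

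Set against 18.7% of all genes that rose and 19.9% that fell, other pathway genes in adipose tissue gave 7 rises and 3 falls among 29 replication genes, 14 rises and 1 fall among 45 mitosis genes, and 7 rises and 2 falls among 21 transcription factors and G1 kinases. MELK, a mitotic kinase (0.53 ± 0.12), and MCM10 (0.29 ± 0.10) were among the rises. Of 7 CDK inhibitors CDKN2B rose (0.34 ± 0.09), while CDKN2C (-0.20 ± 0.07) and CDKN1C (-0.16 ± 0.06) fell.

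Whether members responded unequally in different tissues was tested with limma on within-animal changes. The diet effect in liver exceeded that in adipose tissue for 6 members and fell short for 3 of 26 tested, where 20.5% and 17.2% of all genes did. MCM5 (difference 0.64 ± 0.12, log2), CCNE1 (0.56 ± 0.12), TOP2A (0.55 ± 0.18), MCM6 (0.48 ± 0.08), PRC1 (0.45 ± 0.15) and MCM2 (0.34 ± 0.09) had the higher effect in liver. CCNE1 rose in liver and fell in adipose tissue. CCND1 (-0.41 ± 0.11), BIRC5 (-0.38 ± 0.14) and PLK1 (-0.30 ± 0.07), the 3 members that fell in liver, had a lower effect there than in adipose tissue by this test. For MKI67 the difference did not pass.

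Against muscle, the diet effect in liver was higher for 5 and lower for 3 of 17 members tested, where 16.6% and 16.4% of all genes were. These are differences of diet effects and not of levels. MCM5 (0.54 ± 0.13), MCM2 (0.41 ± 0.10), CCNE1 (0.35 ± 0.13), HMMR (0.35 ± 0.13) and MCM6 (0.29 ± 0.09) were higher, and AURKA (-0.46 ± 0.12), MCM4 (-0.21 ± 0.08) and PLK1 (-0.19 ± 0.08) lower. Between adipose tissue and muscle only MCM6 differed among 18 tested (-0.23 ± 0.05, adjusted p = 0.001, limma), where 5.72% of all genes were higher and 7.12% lower. Of the helicase subunits, MCM2, MCM5 and MCM6 differed between liver and both other tissues, and MCM4 between liver and muscle alone. MCM3 and MCM7 passed in no comparison. MCM6 was raised in liver and muscle and not called in adipose tissue.

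Levels on LCLF set the order of tissues for each gene, over 92 animals with all 3 tissues. Adipose tissue was above muscle for 29 members and below for 5, where 53.3% and 40.1% of all genes were. Liver was above muscle for 21 and below for 11 (47% and 45.8% of all genes), and above adipose tissue for 8 and below for 26 (43.1% and 48.3%). MKI67 was highest in adipose tissue, with log2 differences of -0.99 ± 0.14 for liver over adipose tissue and 2.73 ± 0.20 for liver over muscle. BIRC5 was highest in liver, by 3.44 ± 0.13 over adipose tissue and 5.71 ± 0.16 over muscle. These differences are scaled by TMM (trimmed mean of M-values). Scaled by total counts alone, as the CPM are, log2 ratios of median levels for liver over adipose tissue were lower by a median of 1.41 over the members. Of the 8 members above adipose tissue only BIRC5 and ASPM then kept their direction, and PLK1 (1.19 ± 0.07 by TMM, -0.20 by total counts), CCND1 (0.91 ± 0.08 and -0.55), AURKA, TPX2, KIF11 and NUSAP1 turned. Of the 5 members lower in adipose tissue than in muscle, PLK1 and MCM4 turned. The order of these members between tissues therefore depends on the scaling. CCND1 was above muscle in liver on either scale, by 3.28 ± 0.08 by TMM.

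Animals kept part of their ranking between diets. The level on HCHF correlated with that on LCLF past an adjusted p of 0.05 (80 correlations, permutation test) for 19 of 26 members in liver, 15 of 18 in muscle and 12 of 36 in adipose tissue, with median r of 0.29, 0.42 and 0.15. The share of all genes that did so is not given here, so these counts cannot be called particular to the members. BIRC5 in liver was at r = 0.67 (rho = 0.57), at 0.59 without the 2 farthest animals, 0.68 in batch 2 and 0.59 in batch 1. Changes in different tissues of an animal were mostly unrelated, and 2 of 61 correlations passed (permutation test). PCNA changed together in liver and muscle (r = 0.40, rho = 0.36, adjusted p = 0.018), and MCM5 oppositely in adipose tissue and muscle (r = -0.44, rho = -0.39, adjusted p = 0.00122). Without the 2 farthest animals these were 0.33 and -0.37, in batch 2 they were 0.41 and -0.31, and in batch 1 0.33 and -0.84.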

How the data were processed

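The authors deposited a table of read counts per gene for 588 libraries and another for the 570 kept after their quality control. Per the submitters' processing notes, reads were aligned with STAR 2.7.7a and counted with featureCounts. For the build, the strand setting and the quality criteria the entry is “not given in the sources used here”. Per the labels, some libraries were unstranded and single-end and others stranded and paired-end, all of 50 bases. Which animals belong to which batch was inferred from the first principal axis of expression, which held 23.3% of the variance.

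Genes were kept by filterByExpr (minimum count 10) and scaled by TMM. HCHF was compared with LCLF in animals with both, using edgeR 4.0.16 quasi-likelihood tests in R 4.3.3 with animal as a block, a common dispersion estimated on 1000 genes, and Benjamini-Hochberg adjustment over all genes tested. The pairing comes from the animal identifiers in the labels, and deviations of an animal's libraries correlated at a median r of 0.511 (liver), 0.478 (muscle) and 0.495 (adipose tissue). Tissue differences used limma 3.58.1 on within-animal changes for the diet effect, and edgeR for LCLF levels. Changes for correlations were in log2 CPM with a prior count of 2, and p came from 100000 permutations within batch. On data simulated for liver (1500 genes), 89.9% of changes of 0.25 and 100% of changes of 0.5 (log2) were recovered, with 6% of calls false. The simulation gave all genes the same dispersion and each changed gene the same change in every animal, which real livers need not have. These shares therefore do not give the power or the error for members at low counts.

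Full values were given per tissue for up to 12 members that rose and 12 that fell, by size of change, and always for MKI67, CCND1 and PCNA, and up to 4 called genes were named of each other list. The members and lists were chosen with earlier results of these data known. Alternatives covered the scaling (RLE, and total counts for tissue order), the filter, the test (limma-voom, limma trend, DESeq2 1.42.0), the replicate block, the batches, left-out libraries and single animals. Of the symbols, 33824 of 34178 matched RefSeq (Panubis1.0), which gave the overlaps of genes.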

Additional observations from a re-analysis of the deposited data

Results flagged for a closer look

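The effect of HCHF over LCLF differed between tissues for 18 combinations of a member and a tissue pair, by limma on within-animal differences with Benjamini-Hochberg adjustment over all genes. Such differences were common among all genes, at 20.5% higher and 17.2% lower for liver minus adipose tissue, 16.6% and 16.4% for liver minus muscle, and 5.72% and 7.12% for adipose tissue minus muscle. Between liver and adipose tissue (82 animals), the liver effect was higher on the log2 scale for MCM5 by 0.64 (adjusted p = 1.29e-05), CCNE1 by 0.56 (6.25e-05), TOP2A by 0.55 (0.0139), MCM6 by 0.48 (4.81e-07), PRC1 by 0.45 (0.012) and MCM2 by 0.34 (0.00203). The difference was -0.41 for CCND1 (adjusted p = 0.00117), -0.38 for BIRC5 (0.0252) and -0.30 for PLK1 (0.000425).

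Between liver and muscle (80 animals), the liver effect was higher for MCM5 by 0.54 (adjusted p = 0.000538, limma), MCM2 by 0.41 (0.000907), CCNE1 by 0.35 (0.0252), HMMR by 0.35 (0.0316) and MCM6 by 0.29 (0.00836). The difference was -0.46 for AURKA (adjusted p = 0.00146), -0.21 for MCM4 (0.0345) and -0.19 for PLK1 (0.0494). Between adipose tissue and muscle (91 animals) MCM6 differed by -0.23 (adjusted p = 0.001, limma).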

How the results depend on the processing

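Of the counts and medians recomputed under each alternative except total-count scaling, 224 stayed close to the reported value and 28 moved. Of the values for single members, again without total-count scaling, 371 kept their direction and call, and 45 kept the direction and lost the call. The other 3 turned round, all in batch 1 alone: CCND1 in muscle to a log2 fold change of -0.0602, PCNA in muscle to -0.0597 and PCNA in adipose tissue to -0.0393. In liver, 21 members were higher and 9735 genes lower with no filter and limma-voom together, and 6 members were higher among genes with a mean of at least 1 CPM. Without the replicate block, that is with unpaired fits, 2236 genes were lower in liver, 445 higher and 133 lower in muscle, and 1872 higher and 1826 lower in adipose tissue, and DESeq2 without it gave 2281, 411, 132, 1995 and 1857. Batch 1 alone (limma-voom, 13 animals in liver, 16 in each other tissue) gave 640 genes higher and 294 lower and 2 members higher in liver, 13 and 3 genes and 0 members higher in muscle, and 0 and 1 genes in adipose tissue with 0 members called. With no filter and limma-voom together 7616 genes were lower in adipose tissue, and batch 2 alone with limma-voom gave 672 genes lower in muscle. By total-count scaling of LCLF levels, chosen after seeing the data, 2 of the members higher in liver than adipose tissue and 3 of those lower in adipose tissue than muscle kept their direction, and PLK1 and CCND1 turned to -0.198 and -0.555 for liver over adipose tissue. The median r among the muscle members that rose was 0.43 for HCHF levels and 0.44 for LCLF levels, and that of adipose members that rose with the 1 that fell was 0.10 in batch 1. The cause of these shifts was not tested. Depth limits the members under 1 CPM, of which a library holds few reads.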
